A study of Branchiostoma lanceolatum with 24 samples.

Results

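Embryos of the European amphioxus, Branchiostoma lanceolatum, were followed from 18.5 to 24.5 hours post fertilisation (hpf) in the presence of SU5402, and the change in their RNA over these hours was set beside the change in embryos kept in the solvent. The SU5402 embryos are 4 of the 24 libraries of the study, 2 at 18.5 hpf and 2 at 24.5 hpf, taken by their titles. The 4 DMSO libraries of the same ages served as the comparison, and 2 SU5402 and 2 DMSO libraries at 21.5 hpf lay between them. SU5402 at 50 µM, or DMSO at 0.1%, was added at 15.5 hpf, so the 3 ages correspond to 3, 6 and 9 h of exposure. Age and length of exposure therefore cannot be told apart within the SU5402 embryos. Each library came from mixed whole embryos of no stated number, and the labels name no strain. Whether paired libraries stem from different dishes or spawnings is not said in the labels, so every p-value rests on a spread between libraries that may be technical only.

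Fibroblast growth factors (FGFs) are secreted proteins that bind receptor tyrosine kinases at the cell surface and, through them, switch on the Ras and MAP kinase cascade. SU5402 occupies the ATP site of the FGF receptor kinase and is known to act on some other receptor tyrosine kinases as well. Amphioxus is a cephalochordate, a sister lineage of vertebrates and tunicates, and in its embryo FGF signalling is known for its role in forming the most anterior somites. The hours covered here belong to the neurula stages, when the axis lengthens and the nerve cord, notochord and somites take shape.

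RNA was counted per contig, an assembled piece of transcript. The deposited table pairs no contig with a gene name, and 0 of its 96094 identifiers occur in the RefSeq gene table of the species, so contigs are given by their identifiers, with no function and no sequence. Several contigs can come from 1 gene, and near-identical copies or overlapping genes can share reads, so a count of contigs is not a count of genes. Libraries of 18.5 and 24.5 hpf held 27687922 to 37137241 reads and those of 21.5 hpf 10866511 to 17172529, the latter after 15 PCR cycles against 12 for the other ages. Replicates lay close together, with a biological coefficient of variation of 3.42% to 7.65% within the 6 late groups. Whole embryos were measured, so fewer cells of a type and less RNA per cell cannot be told apart.

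From 18.5 to 24.5 hpf the RNA of SU5402 embryos changed at about as many contigs as that of DMSO embryos. With SU5402, 11520 of 73087 contigs tested rose (15.8%) and 12569 fell (17.2%). The change passed 2-fold at 4707 and 4963 of them. In DMSO embryos 12774 rose (17.5%) and 11659 fell (16%), with 6427 and 3044 past 2-fold. Risen and fallen mean an adjusted p under 0.05 in edgeR's quasi-likelihood test on the 12 late libraries. The median change over all contigs was -0.04 with SU5402 and -0.017 in DMSO on the log2 scale. The balance of directions moved with the scaling. Of the contigs called, 47.8% rose with SU5402 and 52.3% in DMSO, but 63% and 63.1% when library totals replaced the TMM factors. A fit of all 24 libraries, with their wider spread, called 5850 risen and 5507 fallen with SU5402, and the Wald test of DESeq2 7526 and 7262.

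The share of contigs that changed went with their level in both treatments, in reads not corrected for contig length. The mean over the 12 libraries was under 1 CPM (a library's reads scaled to a common total) for 27704 contigs. Of these, 8.82% rose and 12.2% fell with SU5402, and 12.4% rose and 6.45% fell in DMSO. Few reads stand behind each test there. Of the 1735 contigs over 100 CPM, 25.1% rose and 41.6% fell with SU5402, and 24% rose and 48.3% fell in DMSO. Contigs that went from no read to a call were few. A set of 78 risen contigs had 0 reads in both SU5402 libraries at 18.5 hpf, which with 55820261 reads allows a level of up to 0.0537 CPM (3 counts over the pair, counting error only). These 78 reached a median of 0.377 CPM and at most 3.31 CPM with SU5402 at 24.5 hpf, and 0.637 CPM in DMSO. A rise in DMSO was also called at 71 of them, where it was at 53.2% of all contigs risen with SU5402. Contigs without reads in that pair passed the filter on low counts through other groups, DMSO among them. The filter thus favours such a rise, and the 71 test nothing. In the other direction, 15 fallen contigs had 0 reads in both SU5402 libraries at 24.5 hpf. Of these, 4 also fell in DMSO embryos, where 41% of all contigs fallen with SU5402 did. These 15, at a median of 0.281 CPM with SU5402 at 18.5 hpf, likewise passed the filter through other groups. The 4 therefore test nothing either.

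The contigs that rose with the smallest p in SU5402 embryos were ContigAmph4353 and ContigAmph13858. ContigAmph4353 stood at 22.6 and 23.0 CPM in the SU5402 libraries of 18.5 hpf and at 339 and 295 CPM in those of 24.5 hpf, against 25.04 and 28.6, then 315 and 336 CPM, in DMSO. The ages were far apart in both treatments, and at 24.5 hpf the treatments overlapped. Its log2 change was 3.8 with SU5402 (SE 0.083, adjusted p = 2.3e-22) and 3.596 in DMSO (SE 0.081). ContigAmph13858 went from 14.2 and 15.7 to 197 and 189.6 CPM with SU5402 and from 33.2 and 34.9 to 259 and 280 CPM in DMSO. SU5402 libraries were lower at both ages, with no overlap. The log2 change was 3.69 with SU5402 (SE 0.081, adjusted p = 2.3e-22) and 2.98 in DMSO, a difference of 0.71 (SE 0.11, adjusted p = 1.7e-05). The fit of all 24 libraries gave that difference as 0.73 with an adjusted p of 0.14.

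Those that fell with the smallest p, ContigAmph7851 and ContigAmph25219, fell further with SU5402 than without. ContigAmph7851 went from 5065 and 4798 to 847 and 861 CPM with SU5402, by way of 1692 and 1706 CPM at 21.5 hpf. In DMSO embryos it went from 5769.8 and 5252.5 to 1546 and 1666 CPM, by way of 3595 and 3495 CPM. At 18.5 hpf both SU5402 libraries were slightly below the DMSO libraries, and from 21.5 hpf every SU5402 library was far below every DMSO library. The log2 change was -2.53 with SU5402 (SE 0.053, adjusted p = 2.2e-22) and -1.78 in DMSO, differing by -0.75 (SE 0.071, adjusted p = 1.1e-08). ContigAmph25219 fell from 451 and 407 to 48.5 and 46.7 CPM with SU5402 and from 465 and 459.5 to 82.0 and 90.1 CPM in DMSO. The log2 changes of -3.17 and -2.43 differed by -0.74 (SE 0.095, adjusted p = 1.9e-06), and the treatments again did not overlap at 24.5 hpf.

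Set side by side, the changes in the SU5402 and DMSO embryos, which share no library, overlapped in part. Of the contigs risen in DMSO, 6124 also rose with SU5402, which is 47.9% of the DMSO list and 53.2% of the SU5402 list, where 15.8% of all contigs rose with SU5402. Of those fallen in DMSO, 5150 also fell with SU5402, or 44.2% of the DMSO and 41% of the SU5402 list. The opposite change was called with SU5402 at 1320 contigs risen in DMSO (10.3%) and at 463 fallen in DMSO (3.97%). Both shares were below those of all contigs, of which 17.2% fell and 15.8% rose with SU5402. Contigs risen in DMSO had a median log2 change of 1.01 there and 0.46 with SU5402, and those fallen in DMSO -0.66 there and -0.31 with SU5402. Lists chosen for a change in DMSO favour large DMSO values, and in turn contigs risen with SU5402 had a median of 0.84 there and 0.50 in DMSO. Over all 73087 contigs the changes had a Pearson r of 0.494, and over the 12943 contigs of 10 CPM or more 0.597. Points in such a correlation share libraries within each axis and are not independent.

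**Figure D1:**
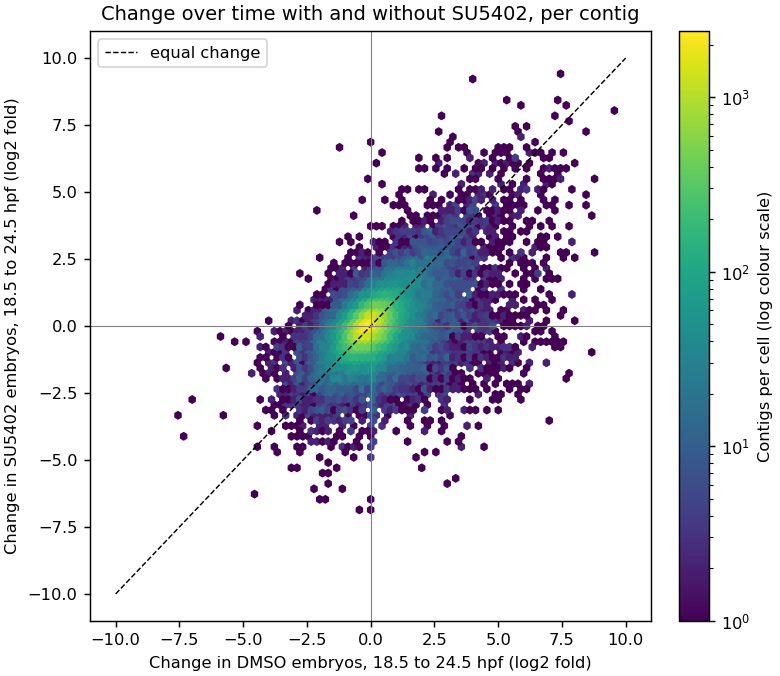
Log2 change from 18.5 to 24.5 hpf of each of 73087 contigs in DMSO embryos (x axis) and SU5402 embryos (y axis), with the colour giving the number of contigs per cell on a log scale. Most contigs lie near 0, a ridge follows the line of equal change, and a wide field at the lower right holds contigs that rose in DMSO and did not rise, or fell, with SU5402.

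The difference between the changes was tested itself. The change with SU5402 minus the change in DMSO was above 0 at 5084 contigs (6.96%) and below 0 at 6327 (8.66%), and more than 2-fold at 1252 and 3864 of these. This split turned with the level of the contigs. Under 1 CPM 1.2% were above and 4.71% below 0, and at 1 to 10 CPM 6.52% and 9.53%. At 10 to 100 CPM 20.1% were above and 14.7% below, and over 100 CPM 22% and 16.5%. The split moved with the scaling as well. Library totals gave 5810 above and 5938 below, and TMM factors taken from abundant contigs gave 3983 above and 7063 below. From the 3 tests each contig was placed in a class. A change was kept where it was called in the same direction in both and the difference was not called. It was lost where it was called in DMSO, not called with SU5402, and the difference was called, and it was new where the same held with the treatments exchanged. It was reversed where the calls were opposite. A kept contig may still differ by less than the test can show, since the median SE of the difference was 0.28 for kept risen and 0.19 for kept fallen contigs on the log2 scale. The classes were formed from the libraries of 18.5 and 24.5 hpf, so values from these libraries describe them and test nothing. Those of 21.5 hpf entered the filter, the scaling and the estimate of spread, and none of the changes compared.

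**Figure D2:**
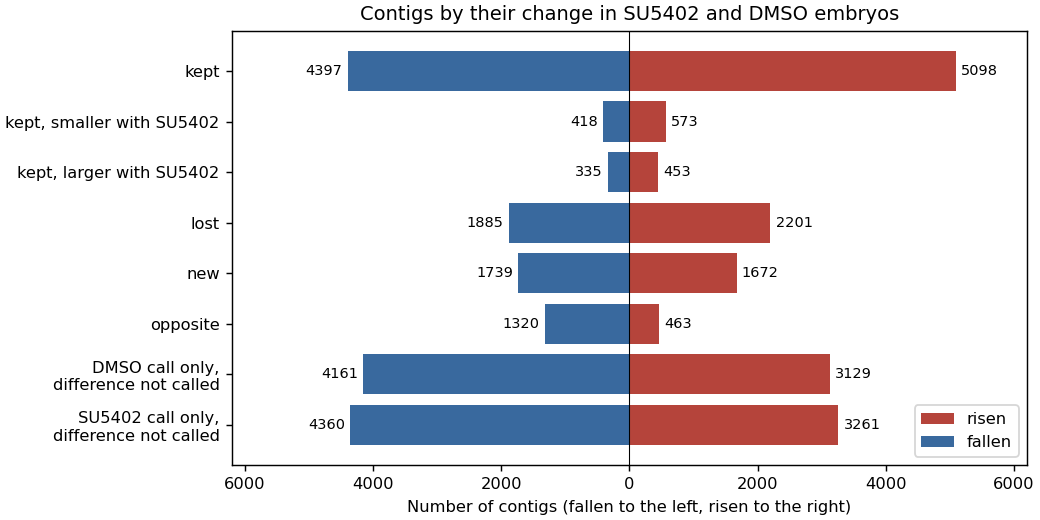
Number of contigs in each class, fallen to the left and risen to the right; for reversed contigs, labelled opposite, the direction is that with SU5402. Kept changes, 5098 risen and 4397 fallen, outnumber the lost, new and reversed ones, and 1320 of the reversed contigs fell with SU5402 against 463 that rose.

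Kept changes were found at 5098 risen and 4397 fallen contigs. Their median log2 change was 1.10 with SU5402 and 1.05 in DMSO for the risen, and -0.67 and -0.70 for the fallen. A further 573 risen and 418 fallen contigs changed the same way in both with a smaller change under SU5402, and 453 and 335 with a larger one. ContigAmph4353, above, led the kept risen contigs. ContigAmph741, the next, stood at 8.57 and 9.22 CPM with SU5402 at 18.5 hpf, at 41.5 and 45.0 CPM at 21.5 hpf and at 176 and 146 CPM at 24.5 hpf. In DMSO it stood at 12.2 and 13.4, 66.2 and 67.6, and 197 and 187 CPM. SU5402 libraries were below DMSO libraries at every age, while the log2 changes of 4.18 (SE 0.095, adjusted p = 4.3e-22) and 3.90 (SE 0.091, adjusted p = 9.8e-22) differed by 0.27 (SE 0.13, adjusted p = 0.16).

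Among kept fallen contigs, ContigAmph10451 went from 728 and 653 CPM over 204.5 and 206 to 161 and 161 CPM with SU5402. In DMSO it went from 864 and 912 CPM over 401 and 382 to 217 and 219.8 CPM. The fall was thus nearly complete by 21.5 hpf with SU5402 and went on longer in DMSO, and the treatments did not overlap at any age. The log2 changes of -2.10 (SE 0.061) and -2.02 (SE 0.061) differed by -0.08 (adjusted p = 0.61). ContigAmph19530 fell from 484 and 493 to 141 and 136 CPM with SU5402 and from 484 and 513 to 121.5 and 125 CPM in DMSO. At 18.5 hpf the treatments overlapped in this contig, and at 24.5 hpf the SU5402 libraries were slightly higher. The count of kept fallen contigs was sensitive to scaling, at 2863 with library totals, and to the test, at 2687 with DESeq2. The fit of all 24 libraries kept 2834 risen and 1767 fallen.

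Of the contigs called in DMSO, 5330 risen and 6046 fallen were not called with SU5402. For most of these, 3129 risen and 4161 fallen, the difference of change was not called either, so they were left undecided. Their median log2 change was 0.25 with SU5402 and 0.85 in DMSO for the risen, and -0.19 and -0.63 for the fallen. Lost changes, where the difference was called, comprised 2201 rises and 1885 falls. Many of these contigs already stood apart from the controls at 18.5 hpf. A gap at 18.5 or 24.5 hpf is favoured by the class rule itself, so the shares at these ages describe the class and test nothing. The 2201 contigs whose rise was lost had a median of 1.72 CPM in DMSO at 18.5 hpf and 3.67 CPM at 24.5 hpf, while with SU5402 they were already at 3.04 CPM at 18.5 hpf and stood at 2.84 CPM at 24.5 hpf. At 18.5 hpf, 1429 of them (64.9%) were higher with SU5402 than in DMSO, where 16.4% of all contigs were, and 65 were lower, where 14% were. At 24.5 hpf, 967 (43.9%) were lower with SU5402, against 11.2% of all contigs, and 148 were higher, against 11.7%. By these calls, 1108 were higher at the start and not lower at the end, 646 were lower at the end and not higher at the start, and 321 were both. At 21.5 hpf, in libraries that did not form the class, 487 (22.1%) were higher with SU5402 and 275 (12.5%) lower, against 11% and 10.6% of all contigs.

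ContigAmph13492 led the lost rises. It stood at 835 and 836 CPM with SU5402 at 18.5 hpf, at 739 and 663 CPM at 21.5 hpf and at 677 and 838 CPM at 24.5 hpf. In DMSO it climbed from 163 and 144 CPM through 673 and 744 to 1174 and 1134 CPM. The SU5402 libraries were flat and began far above the controls, met them at 21.5 hpf and ended below them. The log2 change was -0.14 with SU5402 (SE 0.076, adjusted p = 0.16) and 2.91 in DMSO (SE 0.082), a difference of -3.05 (SE 0.11, adjusted p = 3.7e-17). ContigAmph20832 went from 194 and 194 CPM with SU5402 through 282 and 258 to 159 and 204 CPM, and in DMSO from 33.6 and 31.6 through 186 and 203 to 290.3 and 271 CPM. It followed the same order, with SU5402 above DMSO at 18.5 and 21.5 hpf and below it at 24.5 hpf, and its difference of change was -3.20 (SE 0.12, adjusted p = 1.1e-16).

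The 1885 contigs whose fall was lost gave the mirror image. Their median level was 13.1 CPM in DMSO and 9.72 CPM with SU5402 at 18.5 hpf, and 8.38 and 9.85 CPM at 24.5 hpf. At 18.5 hpf 1145 of them (60.7%) were lower with SU5402, where 14% of all contigs were. At 24.5 hpf 725 (38.5%) were higher, where 11.7% of all contigs were. In the libraries of 21.5 hpf, which did not form the class, 422 (22.4%) were lower and 177 (9.39%) higher. Over all contigs these shares were 10.6% and 11%. Both named contigs had their lowest SU5402 level at 21.5 hpf. ContigAmph1054 was at 26.0 and 26.9, 18.9 and 19.2, and 31.0 and 27.0 CPM with SU5402 at the 3 ages, and at 55.3 and 53.6, 24.3 and 27.1, and 17.9 and 18.3 CPM in DMSO. It was the lower with SU5402 until 21.5 hpf and the higher at 24.5 hpf. Its log2 change was 0.13 with SU5402 (SE 0.086, adjusted p = 0.25) and -1.59 in DMSO, a difference of 1.72 (SE 0.12, adjusted p = 3.4e-11). ContigAmph13069 began level, at 112 and 122 CPM with SU5402 and 124 and 123 CPM in DMSO. It passed 72.8 and 71.4 CPM with SU5402 and 59.1 and 64.5 CPM in DMSO at 21.5 hpf, and ended at 130.5 and 125 CPM with SU5402 against 55.9 and 57.1 CPM in DMSO. Here the treatments parted late, and the difference of change was 1.26 (SE 0.095, adjusted p = 1.5e-10). Counts of lost changes moved when a single library, DMSO or SU5402, was left out, which leaves 1 library in its group. Lost rises and lost falls were 1034 and 397 in the fit of all 24 libraries and 1450 and 968 with DESeq2.

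Of the contigs called with SU5402, 4933 risen and 6099 fallen were not called in DMSO. Here too the larger number, 3261 risen and 4360 fallen, had no call of the difference and were left undecided. Their median log2 change was 0.69 with SU5402 and 0.20 in DMSO for the risen, and -0.97 and -0.23 for the fallen. New changes, where the difference was called, comprised 1672 rises and 1739 falls. Most of them stood apart from the controls at 18.5 hpf. The class rule itself favours a gap at 18.5 or 24.5 hpf in a given direction. The shares at these ages therefore describe the class and test nothing. Of the new rises, 1047 (62.6%) were lower with SU5402 than in DMSO at 18.5 hpf, where 14% of all contigs were. Of the new falls, 1197 (68.8%) were higher, where 16.4% were. The median level of the new falls was 5.28 CPM with SU5402 and 2.78 CPM in DMSO at 18.5 hpf, and 2.65 and 3.02 CPM at 24.5 hpf. At 24.5 hpf, 629 of the new rises (37.6%) were higher and 570 of the new falls (32.8%) were lower with SU5402, against 11.7% and 11.2% of all contigs. At 21.5 hpf 381 of the new rises (22.8%) were lower and 204 (12.2%) higher, and 484 of the new falls (27.8%) were higher and 225 (12.9%) lower, where 11% of all contigs were higher and 10.6% lower.

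ContigAmph10197 was the new rise with the smallest p. Its level with SU5402 was 18.6 and 18.7 CPM at 18.5 hpf, 27.6 and 32.0 CPM at 21.5 hpf and 58.1 and 67.7 CPM at 24.5 hpf, while the 6 DMSO libraries ran from 18.3 to 20.1 CPM. It thus departed from a level shared with the controls, and the difference of change was 1.78 (SE 0.13, adjusted p = 6.1e-11). ContigAmph4319 instead went from 60.0 and 62.8 CPM with SU5402, below 111 and 108 CPM in DMSO, to 135 and 133 CPM, above 114 and 107 CPM. It met the controls at 21.5 hpf and passed them, and its difference of change was 1.11 (SE 0.092, adjusted p = 8.3e-10). Both named new falls came down from a level above the controls. ContigAmph7459 went from 148 and 122 through 64.3 and 54.8 to 40.9 and 39.7 CPM with SU5402, and stood at 56.7 and 51.2, 44.0 and 41.3, and 49.5 and 46.1 CPM in DMSO. Its difference of change was -1.57 (SE 0.13, adjusted p = 4.7e-10). ContigAmph4635 went from 206 and 193 through 137 and 126 to 89.98 and 92.3 CPM with SU5402 and stayed between 56.8 and 68.0 CPM in the 6 DMSO libraries, so that it was still above the controls at 24.5 hpf. Its difference of change was -1.22 (SE 0.1, adjusted p = 8.9e-10). The fit of all 24 libraries gave 301 new rises and 509 new falls, and DESeq2 866 and 972.

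**Figure D3:**
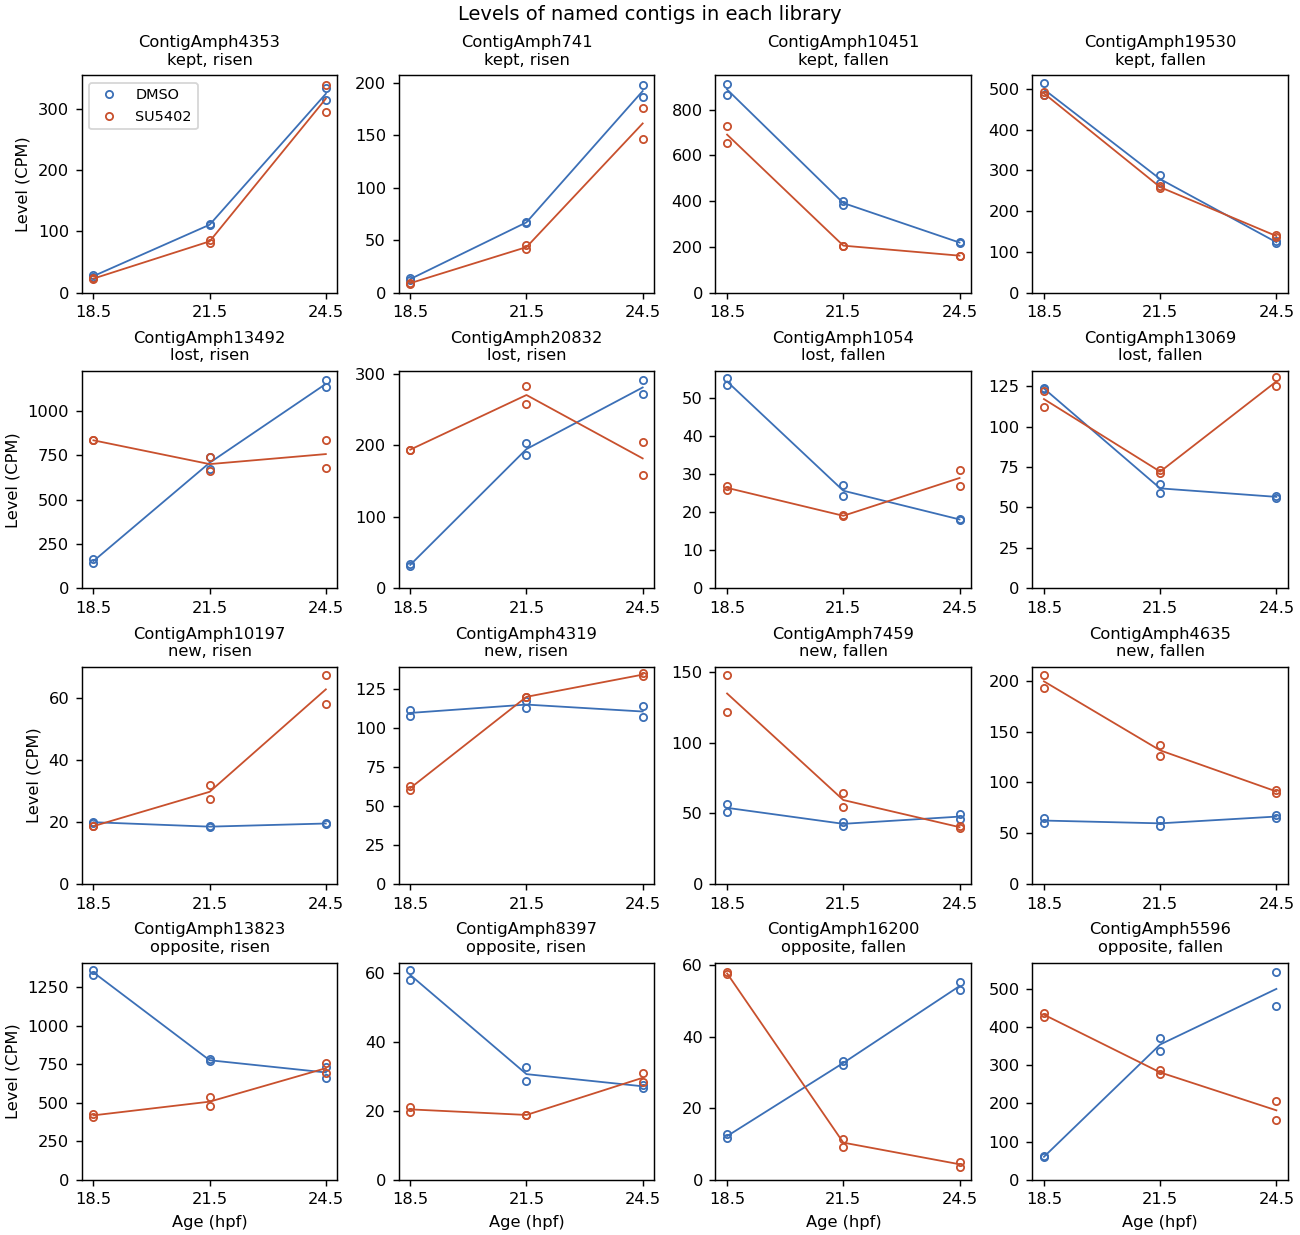
Level in CPM of 16 named contigs at 18.5, 21.5 and 24.5 hpf, 1 circle per library and a line through the mean of each pair, with DMSO in blue and SU5402 in orange; the rows hold kept, lost, new and reversed (opposite) contigs. From 18.5 to 24.5 hpf both lines change in the same direction in the kept row, the SU5402 line ends near where it began in the lost row, the DMSO line does so in the new row, and the lines change in opposite directions in the last row; at 21.5 hpf the lines can differ in shape, as for ContigAmph10451 and ContigAmph8397.

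Reversed changes comprised 1320 contigs that fell with SU5402 and rose in DMSO, and 463 with the opposite pattern. The 1320 were at a median of 7.21 CPM with SU5402 and 2.61 CPM in DMSO at 18.5 hpf, and at 4.26 and 5.56 CPM at 24.5 hpf. At 18.5 hpf 1140 of them (86.4%) were higher with SU5402, where 16.4% of all contigs were. At 24.5 hpf 660 (50%) were lower, where 11.2% of all contigs were. Both calls were met by 480 of them and by 1006 of all 73087 contigs. The class rule itself favours such gaps. In the libraries of 21.5 hpf, which did not form the class, 423 (32%) were higher and 178 (13.5%) lower. Over all contigs these shares were 11% and 10.6%. ContigAmph16200 had the smallest p. It fell from 58.0 and 57.5 CPM through 11.5 and 9.27 to 3.68 and 4.98 CPM with SU5402, while in DMSO it rose from 12.8 and 11.6 through 33.2 and 32.1 to 55.2 and 53.2 CPM. The SU5402 level at 18.5 hpf was close to that of DMSO embryos at 24.5 hpf. Its log2 change was -3.73 with SU5402 (SE 0.11, adjusted p = 1.6e-19) and 2.15 in DMSO (SE 0.1, adjusted p = 8.2e-16), a difference of -5.89 (SE 0.15, adjusted p = 4.8e-20). ContigAmph5596 fell from 427 and 438 through 286 and 276 to 157 and 206 CPM with SU5402, and rose from 61.7 and 58.3 through 337 and 371 to 456 and 544 CPM in DMSO. The lines crossed before 21.5 hpf, and the difference of change was -4.31 (SE 0.13, adjusted p = 1.4e-18).

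The 463 contigs that rose with SU5402 and fell in DMSO were at a median of 14.7 CPM with SU5402 and 22.8 CPM in DMSO at 18.5 hpf, and at 20.2 and 16.8 CPM at 24.5 hpf. ContigAmph13823 rose from 407 and 428 through 479 and 534 to 756 and 691 CPM with SU5402, and fell from 1360.2 and 1329.7 through 783 and 767 to 732 and 659 CPM in DMSO. The treatments were far apart at 18.5 hpf and overlapped at 24.5 hpf. The log2 changes of 0.79 (SE 0.062, adjusted p = 6.4e-11) and -0.95 (SE 0.062, adjusted p = 1.2e-12) differed by 1.74 (SE 0.088, adjusted p = 3.3e-14). ContigAmph8397 was at 21.2 and 19.5, 18.7 and 18.8, and 30.8 and 28.2 CPM with SU5402 and at 57.8 and 60.7, 32.5 and 28.6, and 27.4 and 26.7 CPM in DMSO. Its rise with SU5402 came after 21.5 hpf, and the difference of change was 1.67 (SE 0.12, adjusted p = 5e-11). The counts of reversed contigs were 407 fallen and 64 risen in the fit of all 24 libraries and 712 and 181 with DESeq2. Without SU5402 replicate 1 of 24.5 hpf they were 874 and 296, and without DMSO replicate 2 of 24.5 hpf the risen ones were also 296.

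**Figure D4:**
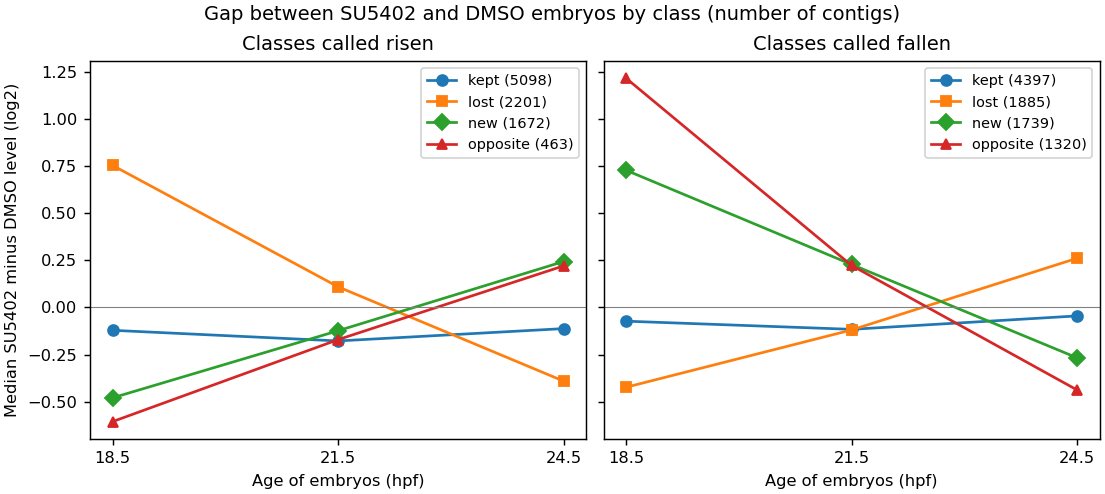
Median over each class of the SU5402 minus DMSO level, in log2 units, at 18.5, 21.5 and 24.5 hpf, for classes called risen (left) and fallen (right), with the number of contigs in brackets. Kept classes stay close to 0 at all ages, while lost, new and reversed classes start on one side of 0 and end on the other, with a gap of 0.75 at the start and -0.39 at the end for the 2201 lost rises.

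The classes took different shares of all reads. Kept falls went from 21.3% and 21.3% to 16.2% and 15.9% of the reads with SU5402 and from 22.4% and 22.3% to 16.3% and 16.2% in DMSO. The 335 contigs that fell further with SU5402, ContigAmph7851 among them, went from 6.29% and 6.01% to 2.84% and 2.77% with SU5402 and from 6.65% and 6.60% to 3.97% and 4.23% in DMSO. The 1320 contigs with a reversed fall went from 10.0% and 9.76% to 7.70% and 8.34% with SU5402, and from 6.02% and 7.10% to 9.24% and 9.32% in DMSO. In these shares SU5402 libraries of 18.5 hpf were above the DMSO libraries of either age for the reversed falls, and those of 24.5 hpf lay between them.

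Each library was also placed on the control time axis. Its position is the log2 difference from the mean DMSO library of 18.5 hpf, projected on the DMSO change from 18.5 hpf (0%) to 24.5 hpf (100%) over the 24433 contigs called in DMSO. SU5402 libraries stood at 31.2% and 32.7% at 18.5 hpf, at 60.3% and 62.5% at 21.5 hpf and at 80.9% and 84.6% at 24.5 hpf. The DMSO libraries of 21.5 hpf, which do not define the axis, stood at 58.5% and 60.2%. On this axis SU5402 embryos were ahead of the controls at 18.5 hpf and behind them at 24.5 hpf. Their place at 21.5 hpf depended on the contigs used. The DMSO libraries of 18.5 and 24.5 hpf define both the axis and its contigs. Any deviation of their own would place other libraries inward from 0% and 100%, and its part in these values was not tested. SU5402 embryos moved by 50.8 percentage points over the 6 h, with a range of 48.2 to 53.3 over pairs of libraries. Over the contigs risen in DMSO the move was 48.3 points and over those fallen 58.3 points. Over the fallen contigs alone the SU5402 libraries of 21.5 hpf, at 69% and 76.2%, were ahead of the DMSO libraries, at 56.9% and 63.2%. Over the risen ones they were slightly behind, at 57.5% and 58.1% against 59% and 59.2%. Over the 12943 contigs of 10 CPM or more they were ahead, at 69.8% and 73.4% against 61.3% and 63.7%. With 2 libraries a group the smallest p of an exact permutation test is 0.333, so positions were not tested. A position is a mean over contigs, and one below 100% does not say that each contig lagged. The axis also leaves out what is not on it. In a principal component analysis of the 20309 contigs of 5 CPM or more, the SU5402 libraries stood at 14.1 to 46.2 on the first component (41.2% of the variance) and the DMSO libraries at -60.9 to -9.14, with no overlap at any age.

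**Figure D5:**
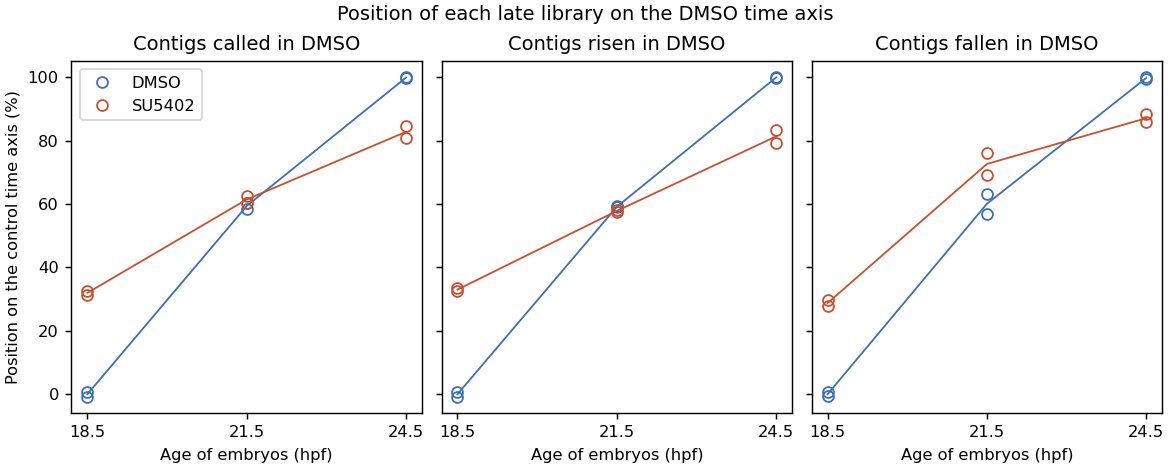
Position of each of the 12 late libraries on the DMSO time axis, in percent, against age, 1 circle per library and a line through the mean of each pair, over all contigs called in DMSO and over those risen or fallen there. DMSO libraries of 18.5 and 24.5 hpf are at 0% and 100% by construction, and SU5402 libraries start near 32% and end near 82.7% in the left panel.

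At 21.5 hpf most contigs that changed with SU5402 lay on the way. The SU5402 mean at that age was between those of 18.5 and 24.5 hpf for 71.4% of kept risen and 60.1% of kept fallen contigs. It was so for 68.4% of new risen, 71.2% of new fallen and 37.6% of all contigs. Contigs chosen for a change between the outer ages favour such a place, so the excess over all contigs tests nothing. The DMSO mean lay between for 83.2% of kept risen, 79.1% of kept fallen and 45.3% of all contigs. On the log2 scale, kept rises had covered a median of 53% of their SU5402 change by 21.5 hpf and kept falls 68.1%. For reversed falls the median was 50.7% and for reversed rises 27.8%. These libraries had fewer reads and more PCR cycles than the others, and the part of this in the midpoint values was not tested.

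The early series, in 50 µM SU5402 or 0.1% DMSO from 5 hpf and collected at 8, 11 and 14 hpf, offered 12 libraries that no class had used. It was fitted on its own, with a biological coefficient of variation of 27.2% against 6.83% for the late series. From 8 to 14 hpf, 23.2% of 77193 contigs tested rose and 19.5% fell with SU5402, and 20.6% rose and 20.3% fell in DMSO. Shares of contigs that had already risen early varied among the late classes, both risen and fallen. Of 4333 kept falls tested there, 40.7% had risen with SU5402 and 37.5% in DMSO from 8 to 14 hpf, and of 1180 reversed falls 56.3% and 47.3% had risen. Lost rises, at 42.8% and 38.6% of 1794, and reversed rises, at 43.7% and 42.4% of 462, gave similar shares. Of 4086 undecided falls called with SU5402 alone, 30.4% had risen with SU5402 and 17.8% in DMSO. ContigAmph7851, whose late fall was larger with SU5402, rose by 2.55 with SU5402 and 2.07 in DMSO on the log2 scale (adjusted p = 6.4e-08 and 1.3e-07 in the early edgeR fit). Of 3599 kept rises, 19.5% had risen and 29.8% had fallen with SU5402, and 24.1% and 24.4% in DMSO.

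SU5402 and DMSO embryos of the early series were also compared at 8 and at 14 hpf. At 8 hpf 8.34% of all contigs were higher and 8.72% lower with SU5402, and at 14 hpf 13.1% and 7.25%. Lost falls, mostly lower with SU5402 at 18.5 hpf, were lower at 8 hpf for 33.2% of 1848 contigs and higher for 2.54%, and at 14 hpf for 23.2% and 2.6%. New falls, mostly higher with SU5402 at 18.5 hpf, were higher at 8 hpf for 17.9% of 1656 and lower for 10.6%, and at 14 hpf for 31.2% and 6.58%. Lost rises, also mostly higher at 18.5 hpf, were higher at 8 hpf for 9.53% of 1794 and lower for 12.3%, and at 14 hpf for 16.9% and 6.52%. Reversed falls were higher at 8 hpf for 13% of 1180 and lower for 18.9%, and at 14 hpf for 24.2% and 10.6%. New rises, mostly lower at 18.5 hpf, were lower at 8 hpf for 22.8% of 1562 and higher for 3.71%. At 14 hpf these shares were 26.1% and 3.14%. Reversed rises were lower at 8 hpf for 44.6% of 462 and higher for 1.3%, and at 14 hpf for 33.5% and 3.25%. In lost rises and reversed falls the larger share thus changed sides between 8 and 14 hpf, as it did over all contigs. In lost falls, new falls, new rises and reversed rises it did not. The classes differ from all contigs in level and so in how readily they are called, so these shares are given beside the background and not tested against it.

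The difference of change was then compared between the series. In the early series the SU5402 minus DMSO difference of the change from 8 to 14 hpf was above 0 at 3.76% and below 0 at 1.66% of contigs. For lost rises, where the late difference was below 0, it was below 0 at 38 of 1794 (2.12%) and above 0 at 130 (7.25%). For lost falls, with a late difference above 0, it was above 0 at 169 of 1848 (9.15%) and below 0 at 78 (4.22%). For reversed falls, with a late difference below 0, it was below 0 at 47 of 1180 (3.98%) and above 0 at 149 (12.6%). In these 3 classes the larger share was thus above 0, as over all contigs, whatever the late sign. New rises gave 5.25% above and 5.63% below 0, and new falls 9.9% and 1.99%. Of the 19 contigs named above, ContigAmph13858 was not tested in the early series. Among the rest, the early difference was called at 3. ContigAmph13069 had an early difference of 1.34 (adjusted p = 0.0012) beside 1.26 in the late series. ContigAmph4635 had 1.15 (adjusted p = 0.0089) beside -1.22, and ContigAmph16200 1.73 (adjusted p = 0.027) beside -5.89. The sign was thus the same in the first and opposite in the others. The replicates of the early series lay farther apart, so a difference that was not called there may still exist.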

How the data were processed

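The authors' deposited table holds raw read counts per transcriptome contig for 24 libraries, whole numbers at or above 0, and 0 columns went unused. The submitters' processing notes list BWA 0.6.1. The sources used here do not give the assembly, counting rule or read filters, and per the labels' protocols the libraries do not mark strand. Contigs were kept with filterByExpr (73087 of 96094, with 99.76% or more of every late library's reads), scaled with TMM factors and fitted with edgeR 4.0.16 (limma 3.58.1, R 4.3.3; quasi-likelihood, 1 coefficient per group, 6 residual degrees of freedom) on the 12 late libraries, whose spread is smaller than that of the early series. Tests were two-sided with Benjamini-Hochberg adjustment over all contigs tested. CPM use library totals and TMM factors. The SE is the log2 change divided by the square root of F. Fits and class rules were tested on simulated counts. The members and lists were chosen with earlier results of these data known. Named contigs were the 2 per direction with the smallest p of the SU5402 change, of both changes (kept) or of the difference (lost, new, reversed). All replicate pairs differed by more than sampling noise (chi-square of 1.39 per degree of freedom or more). Alternatives were other library sets, scalings and filters, DESeq2 1.42.0, a replicate block and leaving out each library.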

Additional observations from a re-analysis of the deposited data

Results flagged for a closer look

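The change from 18.5 to 24.5 hpf differed between SU5402 and DMSO embryos, by the test of the difference itself, at 15 of the 19 named contigs. The difference, SU5402 minus DMSO on the log2 scale, was above 0 at ContigAmph10197 (1.78), ContigAmph13823 (1.74), ContigAmph1054 (1.72), ContigAmph8397 (1.67), ContigAmph13069 (1.26), ContigAmph4319 (1.11) and ContigAmph13858 (0.71). It was below 0 at ContigAmph16200 (-5.89), ContigAmph5596 (-4.31), ContigAmph20832 (-3.20), ContigAmph13492 (-3.05), ContigAmph7459 (-1.57), ContigAmph4635 (-1.22), ContigAmph7851 (-0.75) and ContigAmph25219 (-0.74). Most of these contigs were named for a small p of this difference, so their number shows nothing about contigs at large. Groups held 2 libraries, too few to test single libraries as outliers.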

How the results depend on the processing

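Of the 45 changes and differences called at the 19 named contigs, 809 of 810 values under other settings kept direction and call. The 19 were named for a small p in libraries that the other settings reuse, so such stability is favoured and does not extend to contigs at large. The exception was ContigAmph13858 in the fit of all 24 libraries. That fit left 3957 of 9495 kept, 878 of 4086 lost, 534 of 3411 new and 470 of 1783 reversed contigs in their class. In that fit the counts moved to 5850 risen and 5507 fallen with SU5402, 7137 and 4999 in DMSO, 885 differences above and 2178 below 0, 2834 and 1767 kept, 1034 and 397 lost, 301 and 509 new, and 64 and 407 reversed (risen, then fallen). The Wald test of DESeq2 gave 7526 and 7262 with SU5402, 7013 fallen in DMSO, 2538 differences above and 3791 below 0, 2687 kept fallen, 1450 and 968 lost, 866 and 972 new, and 181 and 712 reversed. Library totals gave 2863 kept fallen contigs and shifted the median SU5402 change from -0.0396 to 0.0855. A limit of 2-fold left 4707 and 4963 with SU5402, 6427 and 3044 in DMSO, and 1252 and 3864 differences. Leaving out 1 library gave 1464 to 2355 lost rises, 1239 to 1759 lost falls, 296 to 386 reversed rises and 874 to 1222 reversed falls. The position was 35% and 89% over contigs of 10 CPM or more, and 30.9% to 33.7% at 18.5 hpf without 1 DMSO library. Other counts stayed within 1.5 times under DESeq2 size factors, TMM factors from abundant contigs, no filter, the stricter filter and the 8 libraries of 18.5 and 24.5 hpf. With the replicate block 11328 contigs rose and 12354 fell with SU5402, and 2165 rises were lost. The labels do not say what the number marks, and no count moved by 1.5 times. Same-numbered SU5402 libraries of 18.5 and 24.5 hpf deviated against each other (r = -0.29 over 20309 contigs), and a block with the numbers crossed, chosen after seeing the data, gave 11837 and 13005. Low reads limit calls under 1 CPM.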
